A study of Rattus norvegicus with 15 samples.

Results

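miR-15b, miR-16 and miR-195 are microRNAs of one seed family, and their levels were followed in rat liver before and after removal of part of the organ. They were chosen by name, with no measured value in the rule, though earlier results of these data were known. They are 3 of the 350 miRNAs on the array. All 3 were detected on 15 of 15 arrays and were among the 134 miRNAs tested. No miR-15a stands on this array under that name, so miR-15b is the miR-15 measured here.

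The 15 arrays came from rats fed a diet with ethanol for a long period (EtOH) or a carbohydrate control diet given in matched amounts (CHO). The samples are liver at the time of partial hepatectomy (PHx, removal of part of the liver) and 1, 6, 12 or 24 h later. Before PHx there were 4 CHO pools and 3 EtOH pools, and after PHx each diet had 1 pool at each time. An EtOH array before PHx for the 24 h pool was not analysed here. Each array held RNA pooled from 4 animals. By the animal identifiers, 7 of the 8 pools were measured both before and after PHx, and the 1 h and 6 h pools of each diet share 1 animal. All groups, controls included, underwent the operation or were sampled at it, and no strain, sex or age of the rats is stated in the labels. In RNA from whole tissue, fewer cells of a type and less RNA per cell cannot be told apart.

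A microRNA guides a silencing complex to messenger RNAs that pair with its seed, the bases near its 5′ end, and lowers the output of those messages. The miR-15/16 family is known for restraint of the cell cycle and of survival: its established targets include the cyclins D1 and E, CDK6, CHEK1 and BCL2. After partial hepatectomy resting hepatocytes re-enter the cell cycle, and chronic ethanol is known to impair that response in rats.

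The mature sequences, from RefSeq on build GRCr8, show what the 3 miRNAs share and where they part. The array names were taken as the 5p arms. Capitals mark the seed, bases 2 to 8, in 5′ to 3′ direction.
miR-15b: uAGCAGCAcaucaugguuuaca
miR-16: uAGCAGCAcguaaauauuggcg
miR-195: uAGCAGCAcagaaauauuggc
miR-497: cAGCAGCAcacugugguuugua
miR-322: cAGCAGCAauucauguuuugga
miR-503: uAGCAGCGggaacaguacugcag
The last 3 are shown as the other family names on the array. The seed AGCAGCA is found in 5 of the 724 mature rat sequences of the table, and all 5 are on the array. The seed of miR-503 differs in its last base. miR-16 and miR-195 are the closest pair beyond the seed: 19 of the 21 positions they share are equal, and the differences are G10A and U11G, with miR-16 first and positions counted from 1 at the 5′ end. miR-15b and miR-16 are equal at 14 of 22 positions. How far the probes of miR-16 and miR-195 take up each other's target was not tested.

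The genes of the 3 miRNAs lie at 2 places. miR-15b (chr2:155555197-155555218, plus strand) and miR-16 (chr2:155555343-155555364, plus strand) start 146 bases apart inside Smc4, which encodes a condensin subunit. miR-195 (chr10:55450509-55450529, plus strand) starts 337 bases after miR-497 (chr10:55450172-55450193, plus strand). miR-322 (chrX:137726198-137726219, minus strand) and miR-503 (chrX:137725899-137725921, minus strand) are neighbours as well, 298 bases apart.

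Signals are given as scaled signal, which is the spot brightness on a linear scale after each array was brought to the same 75th percentile. The scale serves to set arrays side by side for 1 miRNA, and levels of different miRNAs cannot be compared on it. The arrays detected 108 to 131 miRNAs each. The third EtOH array before PHx stood apart: the median spread of its repeated spots was 34.0% (CV over the spots of a probe), against 7.77 to 9.09% on the other 14 arrays, and its unscaled 75th percentile of 236.5 was the lowest. miR-122, which marks hepatocytes, lay between 33467 and 44009 in scaled signal and was detected on 15 of 15 arrays.

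For miR-15b, the 4 CHO pools before PHx gave scaled signals of 232, 228, 273 and 245, with a mean of 244 ± 20.3 (SD, n = 4). The 3 EtOH pools before PHx gave 232, 290.4 and 268, with a mean of 264 ± 29.5 (SD, n = 3). The EtOH and CHO pools overlapped before PHx. After PHx the CHO pools gave 216 at 1 h, 237 at 6 h, 269 at 12 h and 314 at 24 h. The EtOH pools gave 276 at 1 h, 357 at 6 h, 265 at 12 h and 238 at 24 h. The highest CHO pool was thus the one at 24 h and the highest EtOH pool the one at 6 h, each a single array.

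For miR-16, the CHO pools before PHx gave scaled signals of 1042, 934, 1044 and 1003, with a mean of 1006 ± 51.4 (SD, n = 4). The EtOH pools before PHx gave 887, 1012 and 721, with a mean of 873 ± 146 (SD, n = 3). The groups overlapped, and the lowest of all 15 values, 721, came from the array whose spots varied most. On that array the 10 spots of the miR-16 probe had a CV of 48.6%, against 8.24 to 11.8% on the other 14. A second, dimmer probe of miR-16 gave 592 there, and its lowest value was 569, on the first EtOH array before PHx. After PHx the CHO pools gave 1014, 933, 972 and 1025 at 1, 6, 12 and 24 h, and the EtOH pools gave 1015, 947, 925 and 949. These 8 pools lay within the range of the pools before PHx.

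For miR-195, the CHO pools before PHx gave scaled signals of 271, 257, 292 and 249.9, with a mean of 268 ± 18.5 (SD, n = 4). The EtOH pools before PHx gave 249, 242 and 259, with a mean of 249.8 ± 8.56 (SD, n = 3), and overlapped the CHO pools. After PHx the CHO pools gave 277, 258, 254 and 249 at 1, 6, 12 and 24 h, and the EtOH pools gave 248, 222, 246 and 229. With the probe used here, all 4 EtOH pools after PHx lay below all 4 CHO pools. The highest EtOH signal was 248.3 and the lowest CHO signal 248.6. That separation was found for 8.96% of the 134 tested miRNAs. A second, dimmer probe of miR-195 did not show it: EtOH at 12 h gave 226, above CHO at 24 h with 216. Before PHx that probe gave 160 to 208 in EtOH and 217 to 253 in CHO, with no overlap. All EtOH pools lay below all CHO pools before PHx for 21.6% of tested miRNAs.

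**Figure D1:**
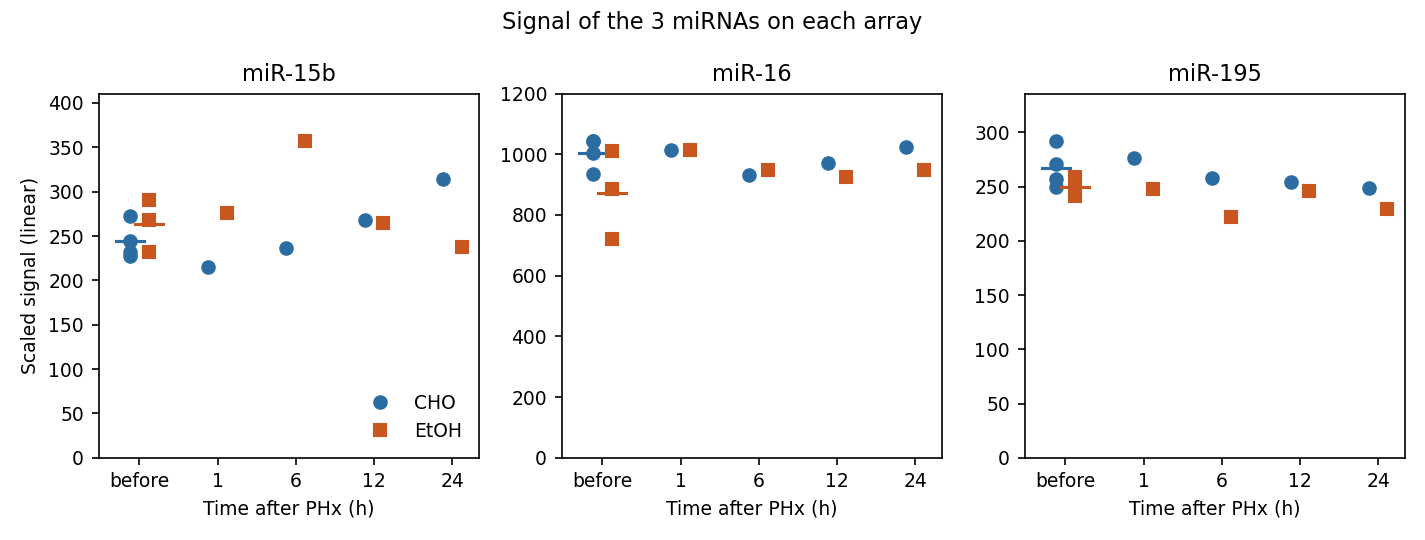
Scaled signal (linear axis from 0) of miR-15b, miR-16 and miR-195 on each of the 15 arrays, by time after PHx in hours and by diet; each point is 1 array of RNA pooled from 4 animals. miR-15b reaches 357 in EtOH at 6 h and 314 in CHO at 24 h, while miR-16 has its lowest point, 721, in an EtOH pool before PHx.

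Across diet and time, miR-15b varied about as much as a typical miRNA and the other two varied less. The SD of the log2 signal over 15 arrays was 0.195 for miR-15b, at rank 53 from the least variable of the 100 miRNAs detected on all arrays, where the median SD was 0.193. The SD was 0.134 for miR-16, at rank 27. The SD was 0.0989 for miR-195, at rank 7, so few miRNAs had a steadier signal by the probes used. The miR-195 probe used ran from 222 to 292 in scaled signal, while its second probe ran more widely, from 160 to 253.

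Ordered by mean signal over the 10 combinations of diet and time, miR-15b ran from EtOH at 6 h down to CHO at 1 h, a 1.66-fold range. Of the 9 gaps between neighbours in that order, 3 exceeded the pooled SD of 0.131 on the log2 scale: below EtOH at 6 h, below CHO at 24 h, and above CHO at 1 h. For miR-16 the range was 1.19-fold and 0 of 9 gaps exceeded the pooled SD of 0.155. The pooled SD is moderated by limma and rests on the pools before PHx. For miR-16 these had an SD of 0.246 in EtOH, with the array of variable spots, and 0.0751 in CHO. Each group after PHx is a single array, so a gap set against this SD does not tell whether neighbours differ. For miR-195 the range was 1.25-fold from CHO at 1 h to EtOH at 6 h, and 1 of 9 gaps, that between EtOH at 12 h and EtOH at 24 h, exceeded the pooled SD of 0.0878. The lowest 2 places of miR-195 were EtOH pools, and its highest 4 were CHO groups.

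The first comparison asks whether chronic ethanol alone changed the resting liver. None of the 3 miRNAs passed the test in it. The differences below are EtOH minus CHO in log2 units, from one limma model over all 15 arrays, with p-values adjusted by Benjamini-Hochberg over the 134 tested miRNAs and called below 0.05. Before PHx, 0 of the 3 were called, beside 15.7% of all tested miRNAs, and at an unadjusted p under 0.05 the count was also 0 of 3, against 35 of 134 tested miRNAs. miR-15b differed by 0.11 (SE 0.152, adjusted p = 0.68), with a 95% interval in fold of 0.855 to 1.36. miR-16 differed by -0.22 (SE 0.103, adjusted p = 0.201), an EtOH level of 0.861 times the CHO level with an interval of 0.736 to 1.01. miR-195 differed by -0.10 (SE 0.073, adjusted p = 0.436), with an interval of 0.836 to 1.04.

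The miR-16 value leaned on single EtOH arrays. Without the array with the variable spots it was -0.08, and without the second EtOH array before PHx it was -0.33 (limma, adjusted p = 0.0529). The direction was the same in both fits. For miR-16 the second probe of the array gave -0.12 (limma over all probes, adjusted p = 0.402), against -0.22 from the brighter probe used here. For miR-195 the second probe gave -0.30 (limma over all probes, adjusted p = 0.0582), against -0.10 from the brighter probe.

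The second comparison asks the same of the liver after PHx, over the 4 times together. Again 0 of 3 were called by limma, beside 7.46% of tested miRNAs, and 0 of 3 had an unadjusted p under 0.05, against 41 of 134. miR-15b differed by 0.13 (SE 0.14, adjusted p = 0.578), with an interval in fold of 0.885 to 1.36. miR-16 differed by -0.04 (SE 0.0956, adjusted p = 0.8), with an interval of 0.841 to 1.12. miR-195 differed by -0.14 (SE 0.0676, adjusted p = 0.204), with an interval of 0.821 to 1.01. miR-195 was lower in EtOH at 4 of 4 times, as were 27.6% of tested miRNAs. In the authors' deposited log2 values it was higher in EtOH at 24 h, with 8.26 against 8.09 in CHO. With the arrays scaled over all probes miR-195 stood higher in EtOH, at 0.11.

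The mean over the 4 times hid opposite signs for miR-15b. Taking single times from a model of the 10 combinations of diet and time, EtOH minus CHO was 0.36 at 1 h, 0.59 at 6 h, -0.02 at 12 h and -0.40 at 24 h. The 6 h difference had an SE of 0.186 and an interval of 0.15 to 1.04, with an unadjusted p of 0.017 and an adjusted p of 0.296 in limma over all tested miRNAs. The 24 h difference had an SE of 0.186 and an adjusted p of 0.897. This model takes the spread of a single pool after PHx from the pools before PHx, and 0% of the 134 miRNAs were called for this difference at 6 h or at 24 h, with 18 and 7 at an unadjusted p under 0.05.

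The 2 array slides follow the same split in time, since one slide held the 1 h and 6 h sets and the other the 12 h and 24 h sets. Within the first slide miR-15b was higher in EtOH after PHx by 0.48 (limma, adjusted p = 0.0464), where 26 of 134 miRNAs were called and 9 of these were higher, and within the second the difference was -0.21 (limma, adjusted p = 0.564). Early against late times and the slides cannot be told apart for this difference. At single times miR-16 lay between -0.11 and 0.02 for EtOH minus CHO, and miR-195 between -0.22 and -0.05, with none of the 3 called at any time, beside 0.746% of tested miRNAs at 1 h and 3.73% at 12 h.

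Whether the diet difference itself shifted with PHx was tested as the difference after minus before PHx. By limma 0 of the 3 miRNAs, and 0% of all tested miRNAs, passed, with 9 of 134 at an unadjusted p under 0.05. The values were 0.03 for miR-15b, 0.18 for miR-16 and -0.04 for miR-195, with adjusted p-values of 0.986, 0.854 and 0.932. The interval in fold was 0.743 to 1.39 for miR-15b, 0.912 to 1.40 for miR-16 and 0.837 to 1.13 for miR-195.

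The next question is whether these inhibitors of the cell cycle moved as the liver left rest. Averaged over both diets, none of the 3 did so by the test at any time. At 1 h, 0 of 3 were called, beside 0% of tested miRNAs and 4 of 134 at an unadjusted p under 0.05. The changes from before PHx were -0.05 for miR-15b, 0.12 for miR-16 and 0.02 for miR-195, each with an adjusted p of 0.98 in limma.

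At 6 h, 0 of 3 were called, beside 4.48% of tested miRNAs. The changes were 0.20 (SE 0.16) for miR-15b, 0.01 (SE 0.109) for miR-16 and -0.11 (SE 0.0769) for miR-195. The miR-15b value rested on the EtOH pool at 6 h, without which it was -0.11. At 12 h, 0 of 3 were called, beside 5.97% of tested miRNAs, and the changes were 0.08, 0.02 and -0.05.

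At 24 h, the latest time, 0 of 3 were called, beside 13.4% of tested miRNAs. The changes were 0.11 (SE 0.16, limma adjusted p = 0.758) for miR-15b, 0.08 (SE 0.109, adjusted p = 0.753) for miR-16 and -0.11 (SE 0.0769, adjusted p = 0.44) for miR-195. The intervals in fold were 0.847 to 1.38, 0.897 to 1.25 and 0.822 to 1.04. The miR-15b change was -0.24 without the CHO array at 24 h and 0.47 without the EtOH array at 24 h. Over the mean of the 4 times, 0 of 3 were called beside 6.72%, with changes of 0.08, 0.06 and -0.06. In these 5 time comparisons 0 of 3 also had an unadjusted p under 0.05 at each, against 21 of 134 tested miRNAs at 6 h, 21 at 12 h, 30 at 24 h and 27 for the mean.

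**Figure D2:**
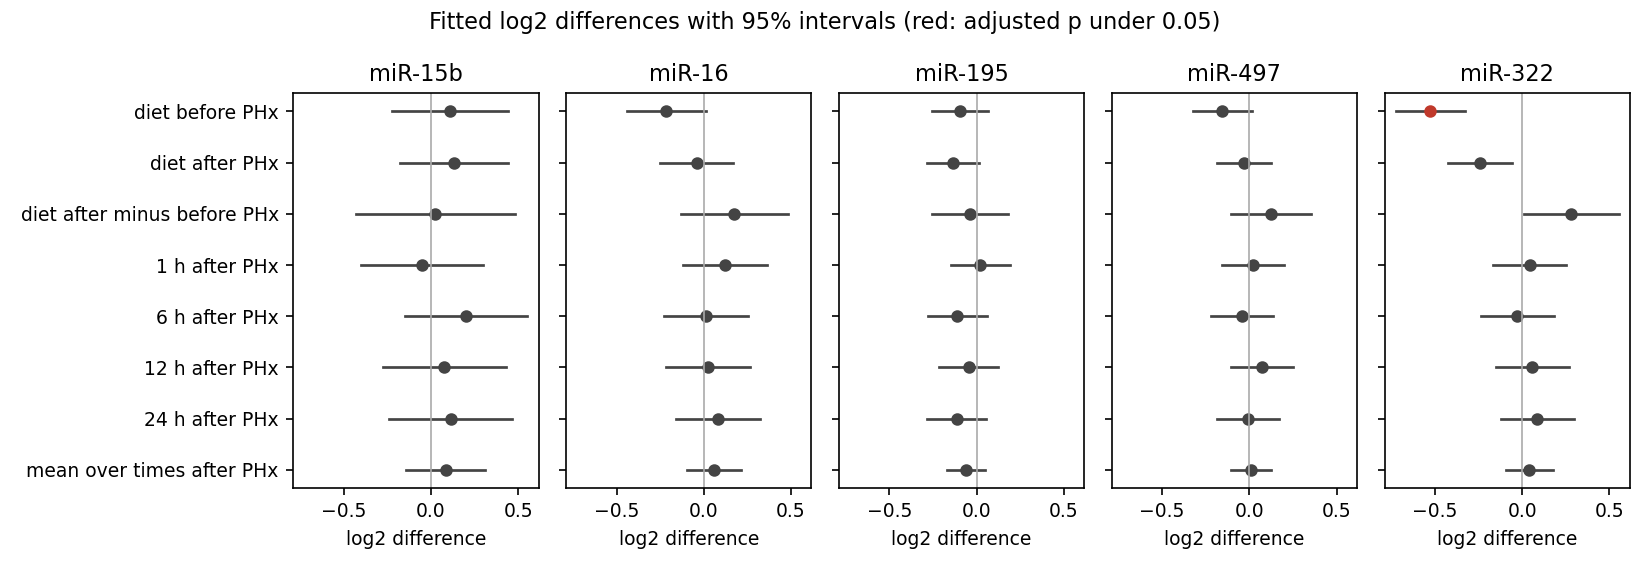
Fitted log2 differences of miR-15b, miR-16, miR-195, miR-497 and miR-322 for the 8 comparisons. Diet differences are EtOH minus CHO, and times are after minus before PHx over both diets. Points are limma estimates, red where the adjusted p is under 0.05, and bars are 95% intervals. The intervals of miR-15b, miR-16 and miR-195 cross 0 in all 8 comparisons, and the widest belong to miR-15b. The red point is miR-322 before PHx, at -0.53.

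Within single diets the miR-15b peaks came at different times. In EtOH at 6 h it stood 0.44 above the EtOH pools before PHx (SE 0.152, limma adjusted p = 0.326, unadjusted p = 0.0244), where 1.49% of tested miRNAs were called. In CHO at 24 h it stood 0.37 above the CHO pools before PHx (SE 0.147, limma adjusted p = 0.231, unadjusted p = 0.0444), where 5.22% were called. In EtOH at 24 h the change was -0.14 (SE 0.152). The difference of the 24 h changes between the diets was -0.51 (SE 0.211, limma adjusted p = 0.902), a comparison with 0% of tested miRNAs called and 4 of 134 at an unadjusted p under 0.05. Over the 16 comparisons of this model, 0 of 48 values of the 3 miRNAs passed the adjusted threshold and 4 had an unadjusted p under 0.05, all 4 of miR-15b. Over all tested miRNAs 198 of 2144 values, or 9.24%, had an unadjusted p under 0.05 in the same model, so the count of 4 is near that background.

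The 7 pools measured before and after PHx hold the same animals on both sides and so give each change within animals. For miR-15b 4 pools went up and 3 went down, from -0.11 to 0.36 with a median of 0.05 in log2 units. The CHO 24 h pool went from 245 to 314, the EtOH 6 h pool from 290.4 to 357, and the EtOH 1 h pool from 232 to 276. The EtOH 6 h pool was thus the highest of its diet already before PHx, and its change within animals was 0.30.

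For miR-16 3 pools went up and 4 down, from -0.10 to 0.36 with a median of -0.0012. The largest change was that of the EtOH 12 h pool, from 721 to 925, and its array before PHx is the one with the variable spots. The second probe of miR-16 showed no rise in this pool, going from 592 to 586. For miR-195 2 pools went up and 5 down, from -0.20 to 0.03 with a median of -0.008. Its largest change was in the CHO 12 h pool, from 292 to 254.

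**Figure D3:**
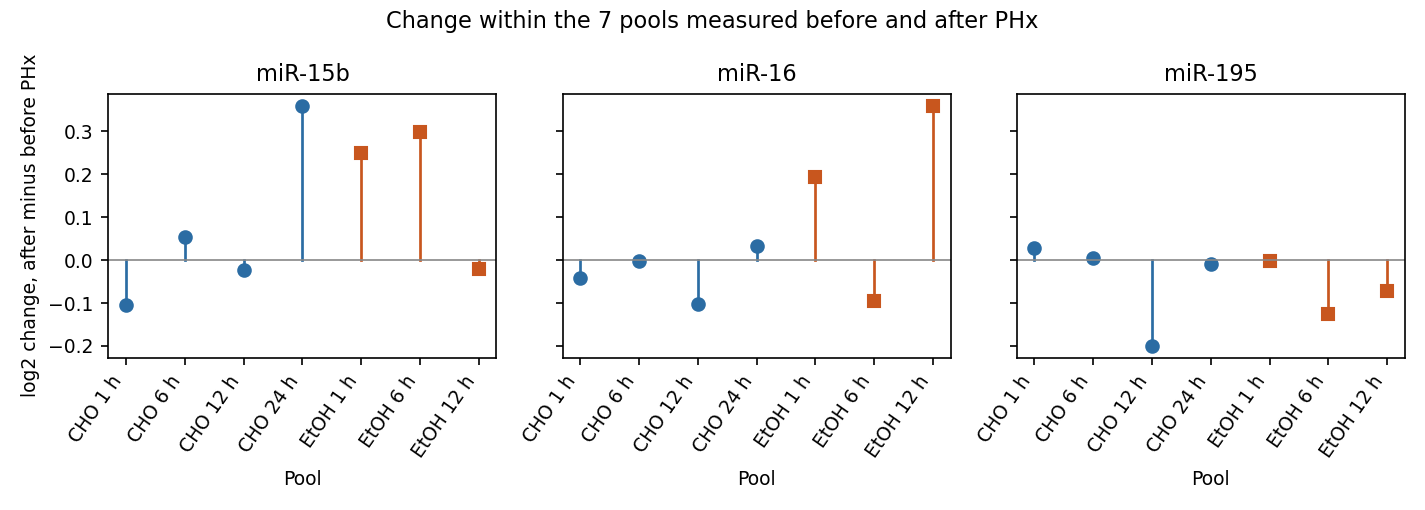
Change in log2 scaled signal from before to after PHx within each of the 7 pools measured at both times, for miR-15b, miR-16 and miR-195; each point with its stem is 1 pool of 4 animals and the EtOH 24 h pool has no array before PHx here. miR-15b shows 4 changes above 0 and miR-195 shows 5 below 0.

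Each miRNA has a pair of probes with 10 spots each, and their agreement differed between miRNAs. Both probes of miR-15b gave the same sign in 8 of 8 comparisons. Those of miR-16 gave opposite signs in 4 of 8 and those of miR-195 in 4 of 8, with no call from either probe. At 24 h the second probe of miR-195 gave 0.01, against -0.11 for the probe used. For miR-16 the probes gave opposite signs at 6, 12 and 24 h, and for miR-195 at 12 and 24 h.

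The 3 miRNAs did not run together across arrays, which is given as a description over 15 arrays that share animals and slides. miR-15b and miR-16, whose genes are neighbours, had a Pearson r of 0.03 (Spearman rho 0.21). miR-15b and miR-195 had an r of -0.47 and a rho of -0.51. miR-16 and miR-195 had an r of 0.17 and a rho of 0.23, and the r was 0.47 without the array with the variable spots. miR-195 and its neighbour miR-497 had an r of 0.58 and a rho of 0.27.

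Among the 133 other tested miRNAs, the pattern most like that of miR-15b was that of miR-25, with an r of 0.85 (rho 0.75) over 15 arrays. miR-25 was highest in the same arrays: its scaled signal was 183 in EtOH at 6 h and 173 in CHO at 24 h, against 133 to 149 in the 4 CHO pools before PHx. let-7d followed with an r of 0.75, then miR-425, miR-140* and miR-30e* with 0.68, 0.67 and 0.64. Without the array with the variable spots the r of these 5 lay between 0.68 and 0.94.

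For miR-16 the most alike were miR-7a, miR-26b, let-7f, miR-30b-5p and miR-99a, with an r of 0.80, 0.73, 0.72, 0.71 and 0.70. These rested on 1 array: without the third EtOH array before PHx they lay between -0.10 and 0.34. On that array miR-7a lay at the floor of 9.61.

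For miR-195 the most alike were miR-143, miR-26a, miR-150, miR-126 and miR-27b, with an r of 0.82, 0.78, 0.77, 0.65 and 0.65, and between 0.65 and 0.89 without that array. Of these, miR-143 stands in the list of stellate and mesenchymal markers, miR-150 in that of leukocytes and miR-126 in that of endothelium. They are single members, and the rest of their lists are not among these miRNAs. From before PHx miR-143 changed by 0.007 at 12 h and -0.16 at 24 h, against stellate list medians of 0.36 and 0.15. In the leukocyte list miR-223 rose by 0.92 at 12 h, against a list median of -0.07. The summed scaled signal of the endothelial list, detected in 2 of 2 members, ran from 1210 to 1300 in CHO and from 1064 to 1133 in EtOH before PHx. The stellate list, detected in 5 of 5, ran from 617 to 668 in CHO and from 525 to 594 in EtOH before PHx. After PHx the diets overlapped in both lists, with 1172 to 1293 in CHO and 1032 to 1236 in EtOH for endothelium and 579 to 689 in CHO and 513 to 712 in EtOH for stellate cells. The leukocyte list, with 3 of its 4 miRNAs on the array detected and miR-142-5p on 0 arrays, ran from 160.3 to 194 in CHO and from 141 to 159.7 in EtOH before PHx. After PHx it ran from 164 to 236 in CHO and from 160.1 to 191 in EtOH. The part of these cells in the miR-195 level was not tested.

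miR-16 is also abundant in red blood cells, whose defining miRNA is miR-451. The erythroid list, with both of its members on the array detected and miR-144 on 6 of 15 arrays, gave summed scaled signals of 618 to 1230 in CHO and 629 to 898 in EtOH before PHx. After PHx it gave 355 to 847 in CHO and 873 to 1210 in EtOH, which do not overlap. The share of tested miRNAs with such a separation in this direction was not counted. Of its 2 tested miRNAs 0 were called for the diet difference after PHx by limma, beside 7.46% of tested miRNAs. The list of biliary and other epithelium, with 3 of 5 detected, gave 71.3 to 87.7 in CHO and 52.0 to 60.6 in EtOH before PHx, and 60.0 to 79.5 and 59.1 to 78.4 after it. The part of red cells and of epithelium in the levels of the 3 miRNAs was not tested.

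The other names with the seed give the family beyond the 3 miRNAs. miR-497, which shares the miR-195 cluster, had scaled signals of 192 to 229.8 in the CHO pools and 183 to 185 in the EtOH pools before PHx, so the groups did not overlap, as was the case for 25.4% of tested miRNAs. Its difference was -0.15 (SE 0.0766, limma adjusted p = 0.224), and after PHx it was -0.03. Its SD over 15 arrays was 0.0884, at rank 3 of 100.

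miR-322, the rodent counterpart of human miR-424, was the family name with a called diet difference. Before PHx its scaled signals were 67.8 to 71.4 in the CHO pools and 45.5 to 50.5 in the EtOH pools, with no overlap. All EtOH pools lay below all CHO pools for 21.6% of tested miRNAs. The miR-322 difference was -0.53 (SE 0.0902, limma adjusted p = 0.00484), an EtOH level of 0.694 times the CHO level, where 12.7% of tested miRNAs were called lower. With the normexp background it was 0.18. After PHx the difference was -0.24 (SE 0.0836, limma adjusted p = 0.0799), and the change in the difference was 0.28 (limma adjusted p = 0.623). At single times, EtOH minus CHO was -0.51 at 1 h, -0.26 at 6 h, -0.25 at 12 h and 0.05 at 24 h. From before PHx to 24 h miR-322 changed by 0.37 in EtOH and -0.20 in CHO, each from a single array at 24 h. miR-503 and the star strand miR-322* were well above background on 0 of 15 arrays, so only a bound is known for them.

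**Figure D4:**
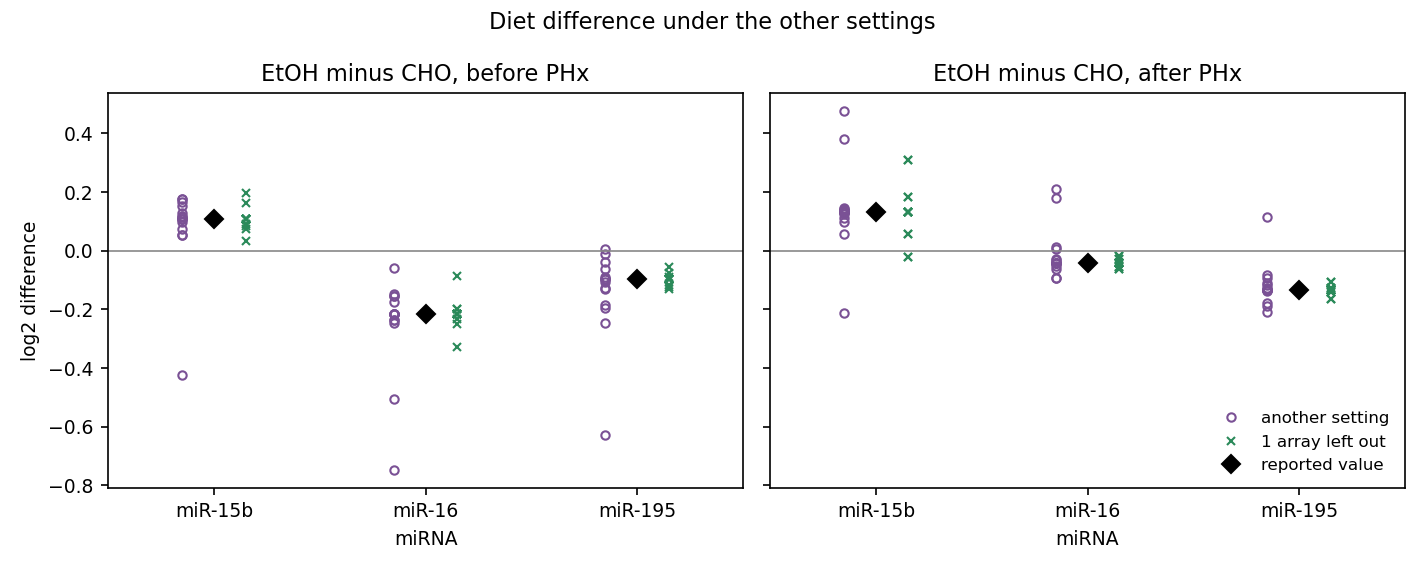
Diet difference (EtOH minus CHO, log2) of miR-15b, miR-16 and miR-195 before and after PHx as reported (diamonds), under each other setting (open circles) and with 1 array left out (crosses). Before PHx the lowest circles, -0.75 for miR-16 and -0.63 for miR-195, are the fits with no scaling of arrays; after PHx miR-15b spreads from -0.21 to 0.48.

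Beside the family, lists of other miRNAs known to act on the cell cycle show what the same arrays recorded. Both lists were chosen with earlier results of these data known, so their counts are descriptions. Of 20 further miRNAs known to restrain the cycle, such as let-7, miR-26, miR-29 and miR-34, 17 were tested, and before PHx 0 were called between the diets, with a median of -0.06 against -0.08 over all tested miRNAs. At 24 h 2 of 17 rose and 0 fell, a share near the 11.9% of all tested miRNAs called higher, with a median of 0.01 against 0.02 over all. These were miR-34a, a p53 target, at 1.20 (SE 0.282, limma adjusted p = 0.0144) and miR-29b at 0.46 (SE 0.0992, limma adjusted p = 0.00886). At 24 h 0 of 17 rose and 2 fell with quantile normalization, 0 rose and 3 fell with the authors' values, and 0 were called with normexp. After PHx miR-34a was higher in EtOH by 0.95 (SE 0.248, limma adjusted p = 0.0416), where 2.99% of tested miRNAs were called higher. That call was lost in 9 of 15 other settings (adjusted p up to 0.996, with a difference of 0.0018 under normexp) and in 9 of 15 fits with 1 array left out, among them each fit without a 1 h, 6 h or 12 h array (0.82 to 0.98).

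Of 14 miRNAs known to promote the cycle, 13 were on the array and 10 were tested. At 24 h 8 of 10 rose and 0 fell, beside 11.9% of tested miRNAs called higher, with a median of 0.55 against 0.02 over all. Since earlier results of these data were known when the list was chosen, this count is no test of it. The members of the list are not replicates of each other. The median stayed above 0 under each scaling, background and summary tried. With normexp, though, 0 of 10 were called and the median of 0.67 lay below the 0.73 over all tested miRNAs. With the pool of the same animals as a replicate block, 0 of 134 miRNAs were called at 24 h against 18 without it, so the calls of both lists were lost. That fit has 2 residual degrees of freedom, and the EtOH pool at 24 h adds nothing to it, having no array before PHx here. The 10 promoting miRNAs were all above 0 in it, with a median of 0.49 and a lowest adjusted p of 0.144 in limma. With the pair-fed sets as a block 5 of 134 were called, 3 of them in the promoting list and 0 in the restraining list. The lowest adjusted p of the promoting list was then 0.00465 in limma. In the fit without a block, miR-21 rose at 24 h by 1.11 (SE 0.117, limma adjusted p = 6.94e-05) and miR-17, of the miR-17-92 cluster, by 0.68 (SE 0.0811, limma adjusted p = 0.00017). Of the 3 tested leukocyte markers, miR-223 alone was called over the same times, by 0.67 at 6 h, 0.92 at 12 h and 0.60 at 24 h (limma adjusted p = 0.0104, 0.000633 and 0.00875). The other 2 were not called, and the list had medians of 0.03, -0.07 and 0.08 at these times. The part of leukocytes in these changes was not tested. Before PHx 6 of 10 were lower in EtOH, beside 12.7% of tested miRNAs called lower, with a median of -0.27 against -0.08 over all, and that median was 0.25 and 0.11 with the 2 normexp settings. The count of 6 was 1 with scaling over all probes or the authors' values, 3 with quantile normalization, 0 and 2 with the normexp settings and 9 with no scaling. miR-25, the miRNA most like miR-15b, belongs to this list and was not called at 24 h (0.20, SE 0.123, limma adjusted p = 0.364). Averaged over both diets in the main fit, the 24 h intervals of miR-15b, miR-16 and miR-195 reached at most 1.38-fold upwards and 0.822-fold downwards. They bound neither diet alone nor the other settings. The miR-15b change at 24 h was 0.37 in CHO, -0.14 in EtOH and 0.46 with the pool as a replicate block. With normexp the miR-16 change at 24 h was -0.31.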

How the data were processed

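MicroRNA levels were measured on 15 single-colour Agilent arrays. The deposited scanner files hold spot intensity on a linear scale with local background subtracted by Agilent Feature Extraction (10.5.1.1 per the file headers, 10.7.3.1 per the submitters' processing notes). A second source was used as an alternative. The authors' deposited table of log2 values, made by a method not given in the sources used here, has column medians of 0.106 to 1.10; its centring is unknown.

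Spots marked non-uniform or as outliers were left out (2503, or 2.38%), the mean signal of each of the 938 probes was scaled so that the 75th percentile of the 185 probes seen on every array was equal, floored at 9.61 and taken to log2. A probe was detected where at least 0.5 of its spots were well above background. The brightest probe stood for its miRNA, and the 134 of 350 miRNAs detected on at least 3 arrays were tested. The number of arrays limits the precision.

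limma 3.58.1 in R 4.3.3 (lmFit, eBayes; 8 residual degrees of freedom) fitted diet before PHx, diet after PHx and the 4 times to all 15 arrays, and a second fit used the 10 combinations of diet and time (5 residual degrees of freedom). The fits were tested on simulated data. The pairing of pools comes from the animal identifiers; with 1 pool per diet and time its deviations could not be checked. Pools share animals in part, so p-values measure the spread between these pools. Named miRNAs were the 3, all family names on the array, per member the 5 with the highest Pearson r, and the called members of the 2 cell cycle lists, shown by examples. The members and lists were chosen with earlier results of these data known. Alternatives changed the scaling, background, summary, filter, slide, pairing and arrays used. The files hold no mean spot signal beside the processed one, so normexp used the median signal.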

Additional observations from a re-analysis of the deposited data

Results flagged for a closer look

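Within the CHO pools before PHx, the first pool had a miR-322 scaled signal of 67.8, set apart from the other 3, which reached 71.4. Its gap to the nearest pool was 0.836 of the group's range, above Dixon's critical ratio for 4 samples. For miR-15b, miR-16, miR-195 and miR-497 no CHO pool before PHx stood apart by this ratio. Chance alone sets apart about 1 group in 20, and 5 were examined.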

How the results depend on the processing

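For the 24 values of miR-15b, miR-16 and miR-195, 366 other fits and 360 fits with 1 array left out were compared. Of the 366, 3 passed the adjusted threshold in limma and 51 had the other sign, while of the 360, 0 passed and 19 had the other sign. The called values were miR-15b after PHx within slide 1 at 0.48, and the diet differences before PHx with no scaling of arrays, -0.75 for miR-16 and -0.63 for miR-195, where the median over all tested miRNAs moved from -0.075 to -0.529. The cause of each change was not tested.

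With no scaling, miR-15b was -0.42 for diet before PHx and 0.16 at 1 h, and miR-16 was -0.023 at 6 h. miR-195 was then 0.50 for the diet difference after minus before PHx, 0.16 at 12 h, 0.0025 at 24 h and 0.063 for the mean over times, and miR-497 was -0.69 for diet before PHx. Scaled over all probes, miR-15b was -0.13 at 12 h. miR-16 was 0.21 for diet after PHx, -0.12 at 6 h, -0.19 at 12 h and -0.021 for the mean. miR-195 was 0.11 for diet after PHx, 0.15 after minus before and -0.0021 at 1 h, and miR-322 was -0.47 before PHx, no longer called, and 0.0062 after it. With quantile normalization, miR-15b was -0.0068 after minus before and -0.061 at 12 h, miR-16 was 0.007 for diet after PHx and -0.023 at 6 h, and miR-195 was 0.017 after minus before.

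With normexp, miR-15b was -0.12 after minus before. miR-16 was 0.18 for diet after PHx, -0.31 at 24 h and -0.026 for the mean. miR-195 was 0.0047 for diet before PHx, -0.017 at 1 h and 0.13 at 24 h, while miR-497 was 0.025 and miR-322 was 0.18 for diet before PHx. These fits compressed 2 arrays, with an SD over miRNAs of 0.734 and 0.377 on the log2 scale. With 1 background value per array, miR-15b was -0.026 after minus before, miR-195 was -0.0052 at 1 h and miR-322 was -0.026 before PHx. With the authors' values, miR-15b was 0.046 at 1 h, miR-16 was -0.071 at 6 h and -0.043 at 12 h, miR-195 was 0.077 after minus before and miR-497 was 0.0046 for diet before PHx. With the total signal per miRNA, miR-16 was -0.055 at 6 h, miR-195 was 0.069 after minus before and 0.062 at 12 h, and miR-322 was -0.29 after PHx and called. With the mean of all probes, miR-16 was -0.030 at 6 h and -0.010 at 12 h, miR-195 was 0.048 after minus before and 0.038 at 12 h, and miR-322 was -0.25 after PHx and called.

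Within slide 1, miR-16 was 0.011 for diet after PHx and -0.041 at 6 h, and miR-322 was -0.38 after PHx and called. Within slide 2, miR-15b was -0.21 for diet after PHx and -0.27 after minus before, and miR-322 was -0.64 before PHx, no longer called. With the slide as a block, miR-16 was -0.041 at 6 h. With the pool as a replicate block, which gives time changes and the change of the diet difference, miR-15b was 0.073 at 1 h, -0.021 at 12 h and 0.46 at 24 h, and miR-16 was -0.049 at 6 h, with no call for the 3. A block for the pair-fed sets gave the same 0.073, -0.021 and -0.049 at 1, 12 and 6 h. The pool as a random replicate block, chosen after seeing the data, had a correlation of 0.114 between arrays of a pool and changed no call of the 3.

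With 1 array left out, miR-15b ran from -0.022 to 0.31 for diet after PHx, -0.13 to 0.20 after minus before, -0.20 to 0.097 at 1 h, -0.11 to 0.51 at 6 h, -0.025 to 0.18 at 12 h, -0.24 to 0.47 at 24 h and -0.0049 to 0.17 for the mean. miR-16 ran from -0.054 to 0.069 at 6 h, -0.041 to 0.081 at 12 h and -0.0057 to 0.12 for the mean, and miR-195 from -0.10 to 0.013 at 12 h. miR-322 ran from -0.55 to -0.48 before PHx, called in 15 of 15 fits, and from -0.34 to -0.155 after it.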
